A study of Arabidopsis thaliana with 24 samples.

Results

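The 12 arrays described here, of 24 in the series, ask how far the response of Arabidopsis thaliana seedlings to sucrose differed between a pair of experiments on the same medium. The first pair is set 97, with 5% sucrose, against set 96, without it. The second pair is set ATGE_101, with 5% sucrose, against set 100, without it. The quantity followed for each probe set, the group of oligonucleotides that reads a transcript, is the sucrose effect of the second pair minus that of the first. All probe sets other than controls were considered, including genes with a locus ID only, and 15471 of 22746 were bright enough to be tested. A called difference was then sorted by its separate effects. It was lost if the effect was called in the first pair and not in the second, gained if the reverse held, and reversed if both effects were called with opposite signs.

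Sucrose is both the carbon that source leaves export and a signal. Plants short of sugar activate the SnRK1 kinase and a programme that breaks down amino acids, lipids and proteins for energy, while plentiful sugar favours growth, storage and pigments. Young seedlings additionally pass from living on seed oil, through beta-oxidation and the glyoxylate cycle, to living on photosynthesis, so their need for outside sugar changes as they grow.

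All 4 sets are green parts of Col-0 seedlings, a wild-type accession with no transgene, grown at 20 °C under continuous light on a medium labelled 0.5x GM. Each set has 3 arrays, A, B and C. The labels add that sets 96 and 97 consisted for the most part of plants resembling set 7 at 7 days, and hold no such remark for sets 100 and ATGE_101. They give the age of none of the 4 sets, so age, experiment and whatever else separates the pairs cannot be told apart. Whether replicate arrays stand for separate cultures is not stated, and the p-values measure only the spread among these samples. The soil-grown sets 7, 22, 23 and 24, at 23 °C and 65% humidity, enter only the pooled estimate of that spread and the levels given at the end. Set 7 is seedling green parts. Sets 22 to 24 are whole plants past the transition to flowering and not yet bolting.

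The mean correlation of an array with the others of its set, on the log2 scale, was 0.987 or above in the 4 sets on medium. In the soil-grown sets it was 0.9696 or above, and no arrays were identical. The median SD of a probe set (log2) lay between 0.0978 (set 97) and 0.115 (set ATGE_101) in the sets on medium and between 0.119 and 0.156 in the soil-grown ones, which share in the estimate of the spread. The 11 measured nuclear photosynthesis genes summed to intensities between 19330 and 29820 on each of the 12 arrays, so markers of green tissue were bright in every set. The 3′ to 5′ ratio of the actin control, a measure of RNA integrity and of labelling length, was 8.62 ± 0.426 (SD, n = 3) in set ATGE_101, against 4.12 ± 1.92 in set 96, 3.8 ± 0.374 in set 97 and 3.6 ± 0.789 in set 100. The ratios of GAPDH and ubiquitin overlapped between the 4 sets. Any result that rests on set ATGE_101 alone moves with this ratio, and its part in those results was not tested. The arrays 100 A and ATGE_101 A also had the lowest BioB spike-in signals, 23.2 and 32.4.

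The sucrose effects differed between the pairs for 1860 of 15471 probe sets (12%), with a higher effect in the second pair for 833 (5.38%) and a lower one for 1027 (6.64%). The tests are limma's moderated test with Benjamini-Hochberg adjustment over the whole table, and "called" stands for an adjusted p below 0.05. Most of the called differences, 1362 (73.2%), had the smaller of their effects in the second pair. The effect itself was called for 5119 probe sets (33.1%) in the first pair, 20.9% higher and 12.2% lower with sucrose. In the second it was called for 2581 (16.7%), 9.91% higher and 6.77% lower. The share of rises among these calls depended on the scaling. It was 63.3% in the first pair and 59.4% in the second, against 54.5% and 51% after quantile normalization and 56.7% and 49.6% with a common 75th percentile. Of the called differences 1135 were lost (7.34% of probe sets tested), 358 gained (2.31%) and 86 reversed (0.556%). Another 170 (1.1%) had effects of the same sign that were smaller in the second pair, 26 (0.168%) had larger ones, and for 85 (0.549%) neither effect was called. A difference of at least 2-fold was reached by 400. With only the 12 arrays in the fit, instead of all 24, 3082 differences were called, 610 of them gained and 265 reversed. Without arrays 100 A and ATGE_101 A, a check chosen after seeing the data, 1100 were called, with 725 lost, 202 gained, 46 reversed and 1634 calls in the second pair. The reversed ones numbered 54 without array 97 A, 56 without 97 B and 55 without 100 A.

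**Figure D1:**
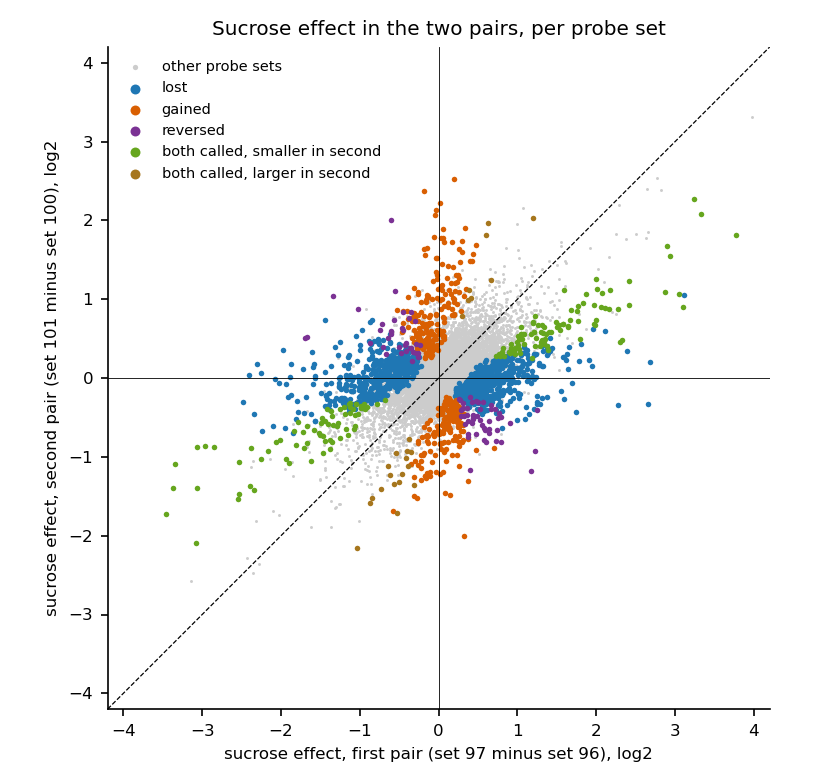
Sucrose effect of each tested probe set, except those naming several genes, in the first pair (x axis, log2) against the second pair (y axis, log2), with the dashed line where both are equal. Lost effects lie along the horizontal axis, gained ones along the vertical axis, and reversed ones to the upper left and lower right of the centre. Over all tested probe sets, including those not drawn, 1135 were lost, 358 gained and 86 reversed.

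An effect called in one pair only was not thereby shown to differ. Of the 3664 probe sets called in the first pair alone, the difference was called for 1135 (31%) and not for 2529. Of 1126 called in the second pair alone, it was called for 358 (31.8%). Where both effects were called with the same sign, 196 of 1369 differences (14.3%) were called. All 86 probe sets with both effects called and opposite signs had a called difference. With opposite signs this follows from the calls of the separate effects, so it is no result of its own. Among the 1135 lost effects 444 kept the same sign in the second pair, so lost does not mean that the second effect was zero.

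Each difference can be read as well from the sets of like treatment. These contrasts share their arrays with the difference and are given as description. Control set 100 differed from control set 96 for 4718 probe sets (30.5%), and sucrose set ATGE_101 from sucrose set 97 for 5693 (36.8%). Of the 649 effects that were a rise in the first pair and lost, 318 differed between the sucrose sets only, 176 between the control sets only, 137 in both and 18 in neither. Here set ATGE_101 was lower than set 97 for 422, and set 100 was higher than set 96 for 264. Of the 486 lost falls, 212 differed between the sucrose sets only and 164 between the control sets only, with set 100 lower than set 96 for 240 and set ATGE_101 higher than set 97 for 284. Gained rises were divided less evenly, 104 of 191 between the sucrose sets only and 31 between the control sets only, and set ATGE_101 was higher than set 97 for 157.

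**Figure D2:**
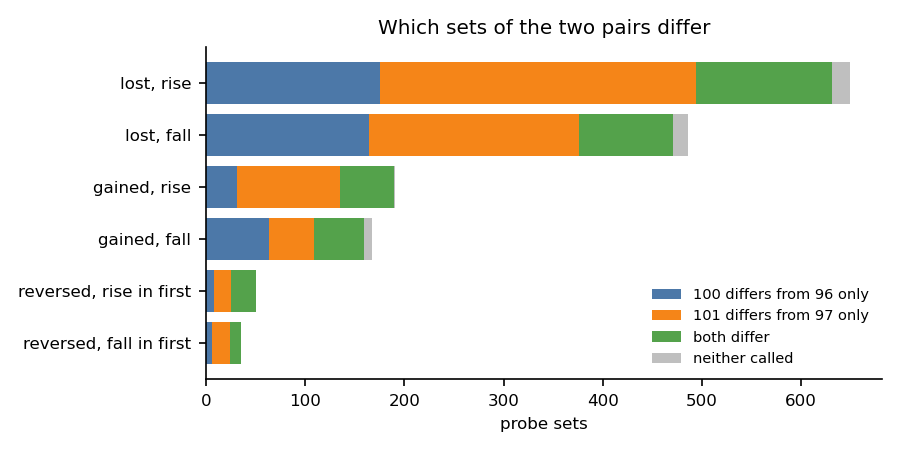
Number of probe sets (x axis) in each class and direction of effect, divided by colour according to which sets of like treatment were called different. The largest share of lost rises (318 of 649), lost falls (212 of 486) and gained rises (104 of 191) differed between the sucrose sets only, while for gained falls it was the control sets (64 of 167). For gained rises the division is in part fixed by the filter on low values.

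The 486 lost falls had a median effect of -0.73 in the first pair and 0.03 in the second, and the named genes reached their second-pair level by different routes. ICL (AT3G21720), the isocitrate lyase that lets the glyoxylate cycle keep carbon, read 146, 135 and 111 in set 96 and 24.04, 38.6 and 24.98 in set 97. In the second pair it read 1.42, 2.2 and 1.39 without and 1.38, 1.47 and 0.771 with sucrose, near the bottom of the scale in all 6 arrays, so that a fall could not be read there. Its effect was -1.94 in the first pair and -0.08 in the second, a difference of 1.86 (SE 0.16, limma adjusted p = 2.8e-07), on the log2 scale after adding 7, which understates changes of dim genes. UGT73B4 (AT2G15490), a glycosyltransferase of small molecules, read 38.6, 42.4 and 42.5 in set 96 but 3.47, 11.5 and 13.6 in set 97, 5.39, 11.9 and 11.98 in set 100 and 12.9, 14.7 and 13.4 in set ATGE_101. Set 96 alone was high, and the sucrose sets were not called different (log2 difference 0.38, adjusted p = 0.095), while the difference of the effects was 1.93 (adjusted p = 4.9e-05). UGT73B4 passed the filter on low values, an intensity above 22.9 on 3 or more arrays, through the 3 arrays of set 96 alone. Its p-values therefore add nothing to that description. Its relative UGT73B5 (AT2G15480) had the same order, 129.6, 46.01, 49.8 and 56.4 as means of sets 96, 97, 100 and ATGE_101 (difference 1.52, adjusted p = 0.0032). GID1B (AT3G63010), a gibberellin receptor, read 122, 126 and 128 in set 96 and 31.99, 36.1 and 42.9 in set 97. It then read 52.96, 50.1 and 45.7 in set 100 and 52.2, 58.9 and 55.7 in set ATGE_101, between the 2 levels of the first pair and overlapping each other (difference 1.74, adjusted p = 8.0e-05).

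Of 3 further lost falls, CCR2 and AT1G05340 differed more between the sucrose sets and AT1G22810 more between the control sets. CCR2 (AT1G80820), a cinnamoyl-CoA reductase of phenylpropanoid metabolism, read 31.95, 43.1 and 34.5 without and 8.35, 2.11 and 4.74 with sucrose in the first pair, and 26.2, 25.3 and 25.3 without and 26.2, 22.8 and 15.2 with it in the second. Set 97 lay below all other arrays, and the difference was 1.66 (adjusted p = 0.0016). AT1G05340, with the largest difference among lost falls of probe sets naming 1 gene, read 310.0, 308 and 339 and fell to 49.2, 57.4 and 57.2 with sucrose, against 190.4, 203 and 201 without and 175, 209 and 228 with sucrose in the second pair (difference 2.44, adjusted p = 1.0e-05). Its second-pair arrays overlapped. AT1G22810 fell from 59.2 ± 8.72 to 11.2 ± 2.61 (SD, n = 3) in the first pair and stood at 18.1 ± 1.71 and 21.3 ± 1.84 in the second (difference 2.04, adjusted p = 6.7e-05). Its control sets differed by -1.4 (log2, adjusted p = 1.1e-05) and its sucrose sets by 0.65 (adjusted p = 0.011). AT1G22810 passed the filter on low values, above 22.9 on 3 or more arrays, through the 3 arrays of set 96 alone. Its p-values therefore add nothing to that description.

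The 649 lost rises had a median effect of 0.57 in the first pair and -0.07 in the second, and 4 of their named genes are given here. NRT2.5 (AT1G12940), a high-affinity nitrate transporter, read 10.5, 11.2 and 12.4 in set 96 and 35.2, 34.3 and 36.8 in set 97. It read 14.5, 13.4 and 14.6 in set 100 and 14.8, 3.64 and 11.1 in set ATGE_101, so that only set 97 stood out, with overlapping arrays in the second pair. The effects were 1.21 and -0.39 and their difference -1.6 (SE 0.27, adjusted p = 0.00061). NRT2.5 passed the filter on low values, an intensity above 22.9 on 3 or more arrays, through the 3 arrays of set 97 alone. Its p-value therefore adds nothing to that description. GH3.3 (AT2G23170), an enzyme that conjugates auxin to amino acids, rose from 53.8 ± 8.22 to 107 ± 4.07 in the first pair and stood at 49.2 ± 3.03 and 38.8 ± 2.28 in the second (difference -1.2, adjusted p = 0.022). Prx37 (AT4G08770), a class III peroxidase, rose from 14.1 ± 3.74 to 47.7 ± 1.79 in the first pair, with 14.8 ± 1.85 and 20.2 ± 2.43 in the second (difference -1.07, adjusted p = 0.019). Like NRT2.5, Prx37 passed the filter through the 3 arrays of set 97 alone, so its p-value adds nothing to these levels. SAL2 (AT5G64000), a phosphatase of the SAL1 family, read 4.92, 9.16 and 6.95 without and 45.4, 52.5 and 44.2 with sucrose in the first pair and 8.92, 5.49 and 9.5 without and 19.1, 18.18 and 11.4 with sucrose in the second. All 3 arrays of set ATGE_101 were above those of set 100, yet that effect (0.63, adjusted p = 0.14) was not called, and the difference was -1.34 (adjusted p = 0.032). The call of GH3.3 was lost without array 96 B (limma adjusted p = 0.052, range 7.0e-05 to 0.07 over all alternatives), and that of SAL2 without any one of arrays 96 A, 96 C, 97 A, 97 B, 100 A, 100 C and ATGE_101 C (limma adjusted p = 0.055 to 0.082, range 0.00097 to 0.082 over all alternatives).

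Among lost rises of probe sets naming 1 gene, the largest difference was that of AT3G22240. It read 390.2, 310.4 and 384 in set 96 and 1825, 1821 and 1659 in set 97, but already 1591, 1927 and 1769.9 without sucrose in set 100 and 1212, 1472 and 1474 with it in set ATGE_101. Set 96 alone was low, and the difference was -2.62 (SE 0.19, adjusted p = 2.1e-08). AT5G55450 went the other way round, with set 97 alone high. It read 33.8, 30.7 and 22.9 without and 107, 125 and 109 with sucrose in the first pair and 24.2, 16.7 and 21.7 without and 11.5, 9.99 and 20.5 with sucrose in the second (difference -2.18, adjusted p = 0.00018). GSTU27 (AT3G43800), a glutathione S-transferase of the tau class, read 122, 125 and 131 without and 272, 284 and 261 with sucrose in the first pair. Its second-pair arrays, 170.1, 185 and 195 without and 174, 183 and 205 with sucrose, lay between these levels and overlapped (difference -1.04, adjusted p = 2.1e-05).

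The 191 gained rises had a median effect of -0.09 in the first pair and 0.75 in the second, and 4 of their named genes were bright only in set ATGE_101 among these 4 sets. OCT1 (AT1G73220), a membrane carrier for organic cations such as carnitine, read 0.956, 0.617 and 0.630 in set 96, 1.47, 3.73 and 0.559 in set 97 and 0.773, 0.942 and 0.993 in set 100. In set ATGE_101 it read 37.1, 36.9 and 41.4, on all 3 arrays far above the other 9 (effects 0.19 and 2.52, difference 2.33, SE 0.14, adjusted p = 1.3e-09). GILT (AT4G12960), a thiol reductase related to a lysosomal enzyme of animals, read at most 7.29 on the 9 arrays of the other sets and 35.7, 37.5 and 37.99 in set ATGE_101 (difference 1.83, adjusted p = 0.0012). AT3G26110 read 2.36, 1.84 and 3.1 in set 100 and 39.1, 33.8 and 38.1 in set ATGE_101, with means of 1.49 and 1.62 in the first pair (difference 2.2, adjusted p = 1.3e-09). AT2G47050 read 7.06, 4.9 and 5.12 in set 100 and 52.2, 47.4 and 45.7 in set ATGE_101, and 1.93 and 1.7 as means in the first pair (difference 2.17, adjusted p = 1.1e-07). These 4 genes passed the filter on low values, an intensity above 22.9 on 3 or more arrays, through the 3 arrays of set ATGE_101 alone, so they had to differ, and their p-values add nothing to that description. Their differences are also set by the pseudocount, as the other sets read low. That of OCT1 was 3.45 with the pseudocount divided by 4 and 1.14 with 4 times the pseudocount, and for GILT these values were 2.44 and 0.964. The 3 arrays that stand out are also those with the high actin ratio, and its part was not tested. In the soil-grown sets the means of these 4 genes lay between 0.523 and 6.08. Of the 191 gained rises 62 had both first-pair sets below that level of 22.9, so a first-pair effect could hardly be read for them. As bulk RNA was measured, a few more cells of a type and more RNA per cell cannot be told apart.

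The labels call all 4 sets green parts, and flower and seed marker lists had no probe set naming their genes alone. A list of 12 pollen and anther genes was therefore looked at, chosen after the values of the gained rises were seen. PLIM2a (AT2G45800), a LIM protein of pollen, had means of 3.88, 4.01, 7.73 and 25.7 in sets 96, 97, 100 and ATGE_101 (difference 1.14, adjusted p = 0.0133). PLIM2a too passed the filter on low values through the 3 arrays of set ATGE_101 alone, so its p-value adds nothing to these means. ATA27 (AT1G75940), an anther gene, had means of 1.75, 0.503, 12.6 and 35.1 (difference 1.33, adjusted p = 0.132). ANX2, a receptor-like kinase of the pollen tube, reached 7.46 in set ATGE_101 and stayed between 0.602 and 1.36 as a mean elsewhere. The pollen genes ACT12, MGH3 and ANX1 had means of at most 2.27 in all 4 sets. The means of 4 other members were lower or nearly level with sucrose in the second pair. ACT11 (AT3G12110), an actin, had means of 84.01 and 66.2 in the first pair and fell from 146.7 to 109.1 in the second (effect -0.40, limma adjusted p = 0.0136). BZIP34 had means of 20.98 and 10.27 in sets 100 and ATGE_101, INP1 12.63 and 7.989, and PLIM2b 54.26 and 55.55. Summed over the list, intensities ran from 143 to 172 in set 96 and 143 to 165 in set 97, against 276 to 303 in set 100 and 279 to 303 in set ATGE_101. The sum was thus higher in both sets of the second pair, with or without sucrose, and ACT11 held the largest part of it among these members. In the soil-grown seedlings of set 7 it ran from 274 to 311. Its part in the gained rises was not tested. EXPA7, the single root marker of 10 that a probe set names alone, read between 3.3 and 14.2 on all 12 arrays.

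Other gained rises were of transcripts already read in set 100, without sucrose. THI2.1 (AT1G72260), a thionin that jasmonate induces, read 6.39, 11.1 and 10.8 without and 8.15, 10.8 and 8.17 with sucrose in the first pair, then 86.9, 80.9 and 83.9 in set 100 and 164, 245 and 228 in set ATGE_101. Both sets of the second pair lay above all arrays of the first, and the sucrose effect was -0.02 and 1.25 (difference 1.28, adjusted p = 0.043). AFR (AT2G24540), an F-box protein of far-red light signalling, read 90.9, 74.6 and 73.3 in set 100 and 181, 173 and 162 in set ATGE_101. In the first pair its arrays overlapped, at 98.7, 94.5 and 112 without and 98.1, 92.98 and 82.8 with sucrose (difference 1.2, adjusted p = 0.003). WSD1 (AT5G37300), a wax ester synthase, had means of 1.75 and 3.29 in the first pair and 36.04 and 92.9 in the second (difference 0.99, limma adjusted p = 0.02). Its first-pair arrays read at most 5.27, so a sucrose effect could hardly be read there. With the pseudocount divided by 4 neither WSD1 nor THI2.1 was called (limma adjusted p = 0.18 and 0.07). The call of THI2.1 was lost without any one of arrays 96 B, 96 C, 97 A, 97 B, 97 C, 100 A, 100 B, 100 C, ATGE_101 B and ATGE_101 C (limma adjusted p = 0.057 to 0.099, range 0.00098 to 0.099 over all alternatives), and that of WSD1 without any one of arrays 96 A, 97 A, 100 B and ATGE_101 B (limma adjusted p = 0.051 to 0.055, range 0.0024 to 0.18 over all alternatives).

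The 167 gained falls had a median effect of 0.10 in the first pair and -0.62 in the second, and 3 of their named genes encode enzymes of cell wall polysaccharides. CSLA03 (AT1G23480), a glycosyltransferase of the mannan synthase family, read 169, 155 and 152 without and 129, 125 and 134 with sucrose in the first pair, without overlap but with no call for that effect. It read 216, 196 and 215 in set 100 and 81.01, 62.3 and 62.3 in set ATGE_101 (effects -0.28 and -1.52, difference -1.25, SE 0.17, adjusted p = 0.0001). CSLC04 (AT3G28180), a glucan synthase of xyloglucan, had overlapping arrays in the first pair, with means of 346 and 314. In the second it read 752, 756 and 727 without and 409.5, 422 and 421 with sucrose, both above the first pair (difference -0.69, adjusted p = 0.00069). TBL45 (AT2G30010), of a family that acetylates wall polysaccharides, read 443, 418 and 421 without and 288, 279 and 272 with sucrose in the second pair, against means of 378 and 467 in the first (difference -0.90, adjusted p = 0.0016). Of these, CSLA03 and CSLC04 were the 2 of 8 measured cellulose synthase and synthase-like genes with a called difference, both lower, against 6.64% lower over all probe sets tested.

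AT5G64100 had the largest difference among gained falls naming 1 gene. It read 227, 275 and 309 without and 311, 355 and 342 with sucrose in the first pair, 136, 119 and 129 in set 100 and 30.5, 18.05 and 33.5 in set ATGE_101 (difference -2.32, SE 0.35, adjusted p = 0.00022). AT1G70985 fell from 40.3 ± 4.19 to 12.2 ± 3.61 in the second pair and stood at 52.7 ± 7.17 and 70.8 ± 14.4 in the first (difference -1.69, adjusted p = 0.0071). For both genes set ATGE_101 was the lowest and set 97 the highest of the 4 sets. NAI2 (AT3G15950), needed to form the ER bodies of Brassicaceae, read 599, 639 and 599 without and 596, 557 and 549 with sucrose in the first pair. Its second-pair values, 232, 226 and 235 without and 136, 109.7 and 110.3 with sucrose, were lower in either treatment and fell with sucrose (difference -0.82, adjusted p = 0.0034). The other 3 measured ER body genes had no called difference (1 of 4 called, against 12% over all probe sets tested), with adjusted p between 0.082 and 0.46. CIL (AT4G25990), a protein with a CCT domain, fell from 24.9 ± 5.18 to 11.04 ± 1.44 in the second pair with overlapping first-pair arrays (difference -0.94, adjusted p = 0.0068). BZIP61 (AT3G58120), a bZIP transcription factor, read 136, 144 and 133 in set 100, while sets 96, 97 and ATGE_101 had means of 77.2, 78.98 and 70.7 (difference -0.93, adjusted p = 0.035). Its call was lost without any one of arrays 96 B, 96 C, 97 B, 97 C, 100 A, 100 B, 100 C, ATGE_101 B and ATGE_101 C (limma adjusted p = 0.058 to 0.083, range 0.00039 to 0.083 over all alternatives).

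**Figure D3:**
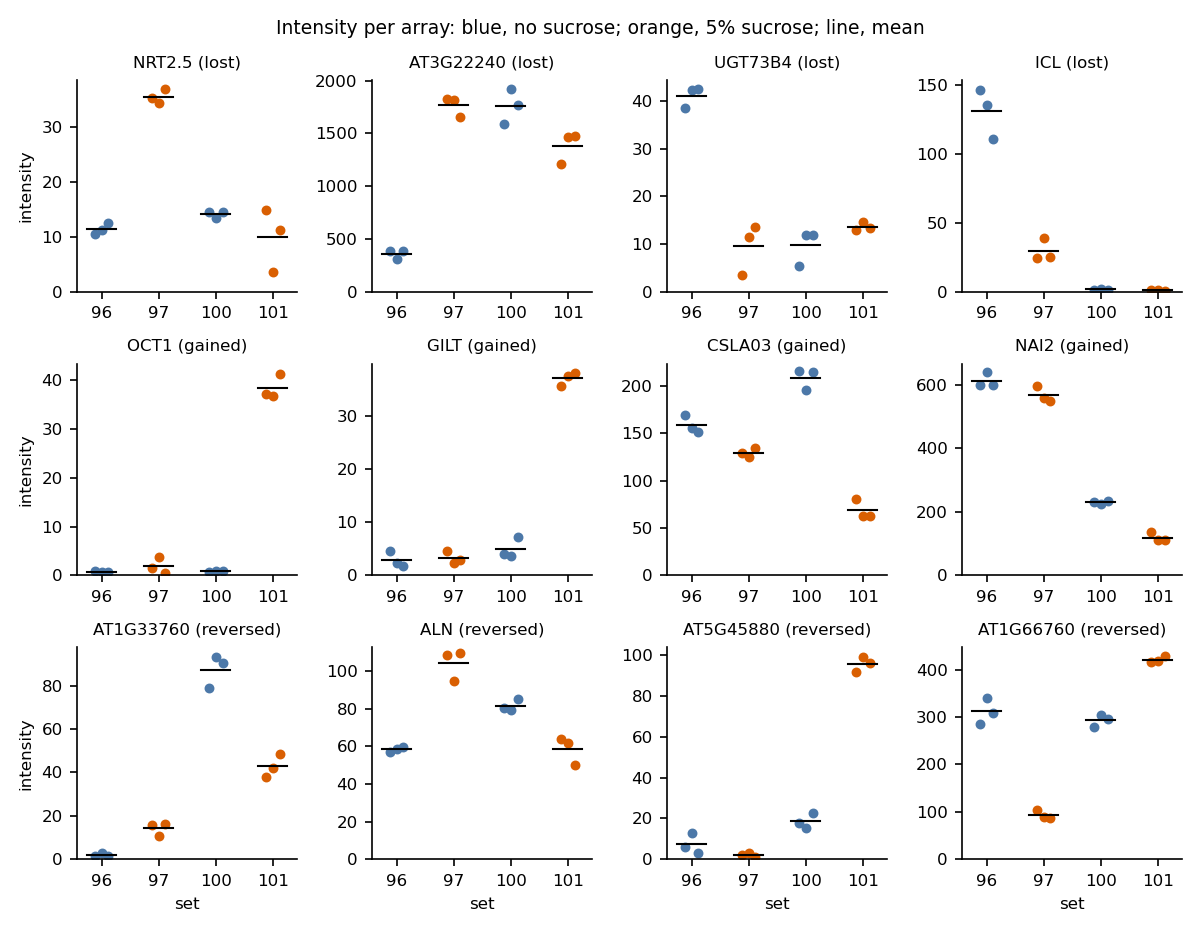
Intensity (y axis, linear, from 0) on each array of sets 96, 97, 100 and ATGE_101 (x axis) for 12 named genes, 4 in each class; blue points are without and orange points with 5% sucrose, and the line is the mean of 3 arrays. OCT1 and GILT stand out in set ATGE_101 alone, UGT73B4 in set 96 alone and NRT2.5 in set 97 alone.

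Sucrose effects of opposite sign were called in both pairs for 86 probe sets, a rise that became a fall for 51 and a fall that became a rise for 35. The median effect of the first kind was 0.50 in the first pair and -0.50 in the second, that of the other kind -0.46 and 0.51, and 47 of the 86 differences were at least 2-fold. AT1G33760 had the largest difference among rises that became falls and name 1 gene. It read 1.58, 3.0 and 1.54 without and 15.5, 10.9 and 16.3 with sucrose in the first pair and 78.8, 93.00 and 90.4 without and 37.8, 42.1 and 48.4 with sucrose in the second. Neither pair overlapped, and both sets of the second pair exceeded all arrays of the first (effects 1.22 and -0.93, difference -2.15, adjusted p = 1.3e-07). AT1G68585 read 52.6, 53.9 and 42.3 without and 126, 123 and 134 with sucrose, then 100.5, 78.5 and 85.8 without and 73.95, 62.8 and 57.6 with sucrose (difference -1.66, adjusted p = 1.3e-05). ALN (AT4G04955), the allantoinase of purine breakdown, read 57.2, 58.8 and 59.4 in set 96 and 108, 94.9 and 109.7 in set 97, then 80.5, 79.3 and 85.3 in set 100 and 63.9, 62.02 and 49.99 in set ATGE_101. Its effects of 0.76 and -0.44 gave a difference of -1.2 (SE 0.19, adjusted p = 0.00029).

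Smaller reversals of this kind came from NANA, SPP and PMEAMT. NANA (AT3G12700), an aspartic protease, had effects of 0.48 and -0.48, with means of 45.4, 65.97, 74.5 and 51.2 in sets 96, 97, 100 and ATGE_101 (difference -0.97, adjusted p = 0.00027). SPP (AT2G03120), a signal peptide peptidase that cuts within membranes, read 285, 269 and 246 without and 363, 354 and 338 with sucrose in the first pair. It read 243, 258 and 268 without and 233, 206 and 212 with sucrose in the second, with overlapping control sets and sucrose sets that lay apart (difference -0.63, adjusted p = 0.00097). PMEAMT (AT1G48600), which methylates phosphoethanolamine on the way to choline lipids, had effects of 0.27 and -0.28 (difference -0.55, adjusted p = 0.0052). For all 3 the arrays of either pair did not overlap.

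None of the 35 falls that became rises carried a gene symbol, so this group is described by its locus IDs. AT5G45880 read 5.77, 12.8 and 3.11 in set 96 and 1.83, 3.07 and 1.18 in set 97, low values in a scale where 7 was added before the log. It read 17.8, 15.4 and 22.7 in set 100 and 91.7, 98.99 and 96.2 in set ATGE_101. By these intensities its rise in the second pair was the clearer effect (adjusted p = 2.1e-06, against 0.041 for the fall). The difference was 2.62 (SE 0.31, adjusted p = 2.0e-05). AT5G45880 passed the filter on low values, above 22.9 on 3 or more arrays, through the 3 arrays of set ATGE_101 alone. Its p-values therefore add nothing to that description. AT1G66760 had its clearer effect in the first pair. It read 286, 341 and 309.5 without and 103, 88.6 and 86.95 with sucrose there, against 279, 305 and 295 without and 417, 419 and 430.2 with sucrose in the second pair (effects -1.67 and 0.52, difference 2.19, adjusted p = 6.2e-06). The control sets overlapped in AT1G66760, and the sucrose sets lay on either side of them.

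Of 10 measured sugar starvation genes 4 had a called difference, with a smaller fall in the second pair. These are genes whose transcripts rise in the dark or without sugar, and of 31 in the list 10 were measured, meaning that a tested probe set named them alone. All 4 with a called difference had a higher value, against a background of 5.38% higher and 6.64% lower, and each was lower with sucrose in both pairs. In the first pair 7 of the 10 fell, against 12.2% of all probe sets tested, and in the second 6, against 6.77%. A higher value is commoner among probe sets that fell in the first pair than the 5.38% over all. Of 1881 such falls 486 were lost, 74 were smaller in the second pair and 35 were reversed. The 4 calls are therefore not shown to be particular to this list. The median effect over the 10 was -0.74 and then -0.50, with a median difference of 0.47, beside -0.04 over all probe sets tested. MCCA (AT1G03090), a subunit of methylcrotonyl-CoA carboxylase in leucine breakdown, read 784, 763 and 815 without and 189, 183 and 199 with sucrose in the first pair and 584, 597 and 582 without and 334, 364 and 315 with sucrose in the second. Set 100 was below set 96 and set ATGE_101 above set 97, so the gap narrowed from both ends (difference 1.22, SE 0.14, adjusted p = 1.3e-05). IVD (AT3G45300), isovaleryl-CoA dehydrogenase of the same pathway, read 335, 358 and 322 without and 125, 129 and 117 with sucrose, then 429, 429.8 and 413 without and 306, 241 and 298 with sucrose (difference 0.81, adjusted p = 0.0016). ETFQO (AT2G43400), which passes on electrons from that pathway, had effects of -1.18 and -0.65 (difference 0.53, adjusted p = 0.0063). AKINBETA1 (AT5G21170), a regulatory subunit of SnRK1, had means of 703 and 333, then 607 and 437 (difference 0.59, adjusted p = 0.038). The AKINBETA1 call was lost without any one of arrays 96 B, 96 C, 97 A, 97 B, 97 C, 100 A, 100 B, 100 C, ATGE_101 A, ATGE_101 B and ATGE_101 C (limma adjusted p = 0.057 to 0.082, range 0.0013 to 0.11 over all alternatives), and with quantile normalization (adjusted p = 0.064).

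Other genes of carbon and nitrogen use had called differences too. SDP1 (AT5G04040), the lipase that opens seed oil stores, read 279.9, 279 and 284 without and 111, 125 and 119 with sucrose in the first pair and 206, 205 and 204 without and 154, 166 and 150.4 with sucrose in the second (difference 0.83, adjusted p = 0.0012). With ICL it made 2 called of the 3 measured glyoxylate cycle and fatty acid breakdown genes (of 19 in the list). Both had a higher value, against 5.38% higher over all probe sets tested. As both fell in the first pair, the commoner higher values of such probe sets apply here too. AIM1 (AT4G29010), a multifunctional protein of beta-oxidation, had effects of 0.15 and 0.18. GAT1_2.1 (AT1G15040), a glutamine amidotransferase-like protein, read 264, 249.6 and 235 without and 80.9, 75.4 and 72.2 with sucrose, then 176, 180.2 and 183 without and 86.2, 64.9 and 101.4 with sucrose (difference 0.57, adjusted p = 0.015). AT1G80380, in the photorespiration list, had means of 1538, 671, 947 and 689 in sets 96, 97, 100 and ATGE_101 (difference 0.73, adjusted p = 0.0027). In GAT1_2.1 and AT1G80380 set 100 lay below set 96 and the sucrose sets were not called different (log2 differences 0.11 and 0.03, adjusted p = 0.41 and 0.82). SWEET11 (AT3G48740), a sucrose exporter that loads the phloem, read 943, 969 and 973 without and 1169, 1186 and 1104 with sucrose in the first pair, then 876, 993 and 979 without and 689, 727 and 785 with sucrose in the second. Sucrose went with a higher level in the first pair, which was not called (0.26, adjusted p = 0.092), and with a fall in the second (-0.37, adjusted p = 0.033), a difference of -0.63 (adjusted p = 0.016).

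EXPA8, GH9B8 and XTH18 had smaller sucrose effects in the second pair. EXPA8 (AT2G40610), an expansin, read 56.3, 64.8 and 64.5 without and 297, 329 and 278 with sucrose in the first pair and 136, 147 and 157 without and 271, 274 and 279 with sucrose in the second. The sucrose sets overlapped and set 100 lay well above set 96 (difference -1.28, adjusted p = 0.0039). GH9B8 (AT2G32990), an endoglucanase of family GH9, had the same form, with means of 10.98, 48.5, 30.98 and 52.4 (difference -1.0, adjusted p = 0.0032). XTH18 (AT4G30280), which cuts and rejoins xyloglucan, fell in both pairs, from 903, 827 and 884 to 110.3, 105 and 81.6 and from 755, 781 and 867 to 298, 264 and 343. Here the control sets overlapped and set ATGE_101 lay above set 97 (difference 1.67, SE 0.53, adjusted p = 0.044). The call of XTH18 was lost without any single one of the 12 arrays (limma adjusted p = 0.062 to 0.097, range 3.3e-05 to 0.18 over all alternatives), and with quantile normalization (adjusted p = 0.064). Each of EXPA8 and GH9B8 was the single called member of its list, of 13 expansins and 7 GH9 cellulases measured, and XTH18 of 5 in its family. For the expansins and GH9 cellulases this is near the 12% called over all probe sets tested and shows nothing about either list.

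**Figure D4:**
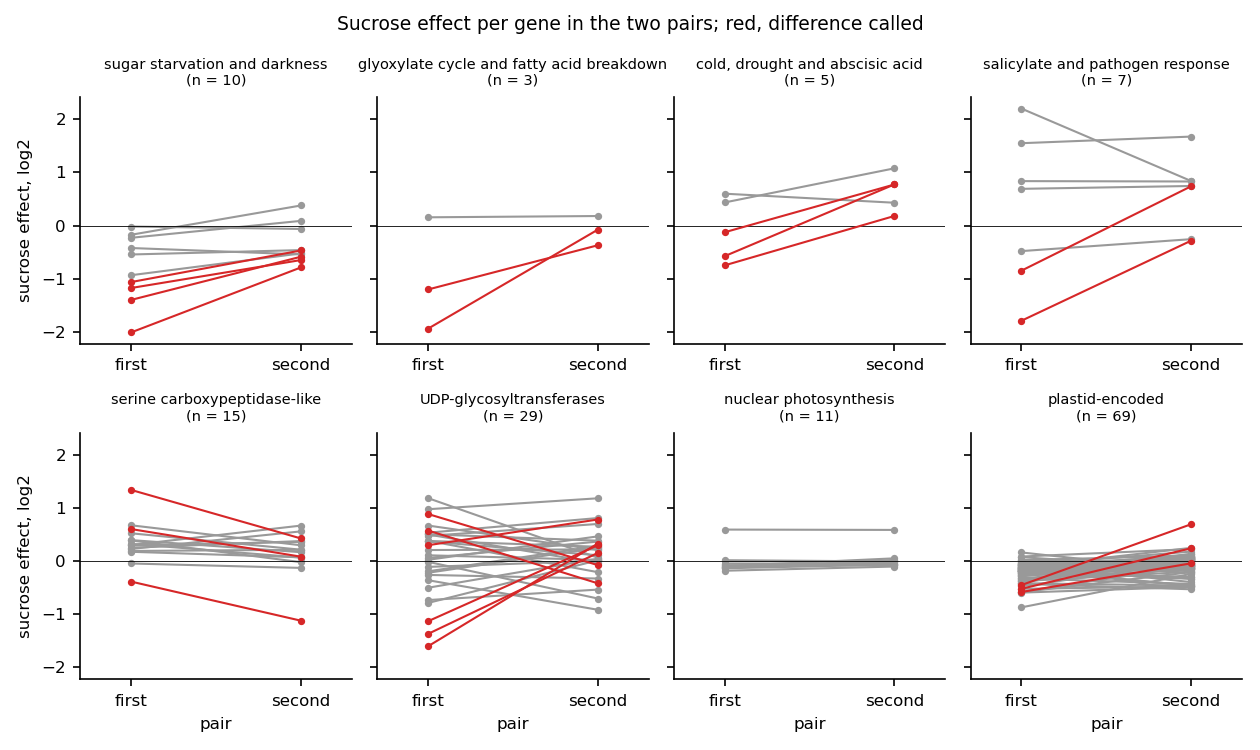
Sucrose effect (y axis, log2) in the first and the second pair (x axis) for the measured genes of 8 lists, with a line per gene; red lines mark genes whose difference was called. The 4 red sugar starvation genes stay below 0 and come closer to it in the second pair, and none of the 11 nuclear photosynthesis genes is red.

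Of 5 measured genes of drought, cold and abscisic acid (32 in the list), 3 had a called difference, all higher, against 5.38% higher and 6.64% lower over all probe sets tested. COR47 (AT1G20440), a dehydrin, read 876, 881 and 892 and fell to 530.1, 532 and 506 in the first pair. It read 1195, 1241 and 1298 without and 1252, 1438 and 1559 with sucrose in the second, above both sets of the first, with overlap between them (difference 0.93, adjusted p = 0.00059). LTI30 (AT3G50970), another dehydrin, read 45.6, 52.1 and 46.6 without and 28.5, 29.5 and 31.8 with sucrose, then 31.7, 30.5 and 27.4 without and 59.7, 50.2 and 58.6 with sucrose. Neither effect was called although the arrays did not overlap, and the difference was 1.35 (adjusted p = 0.034). HIS1-3 (AT2G18050), a linker histone of drought-stressed plants, had means of 29.2, 26.2, 179 and 311 (difference 0.90, adjusted p = 0.029). The other 2 measured genes, with no called difference, had effects of 0.43 and 1.08 (COR15A, AT2G42540) and of 0.60 and 0.43 (COR15B, AT2G42530). The call of LTI30 was lost without any one of arrays 96 A, 96 B, 96 C, 97 A, 97 B, 97 C, 100 A, 100 B, 100 C, ATGE_101 A and ATGE_101 C (limma adjusted p = 0.053 to 0.071, range 1.8e-05 to 0.094 over all alternatives). The call of HIS1-3 was lost without any one of arrays 96 A, 96 B, 96 C, 97 A, 100 B, 100 C, ATGE_101 A and ATGE_101 B (limma adjusted p = 0.05 to 0.064, range 0.00017 to 0.067 over all alternatives).

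Of 7 measured genes of the salicylate and pathogen response, 2 had a called difference, against 12% over all probe sets tested. WRKY6 (AT1G62300), a transcription factor of senescence and defence, read 369.7, 421 and 373 in set 96 and 102, 94.2 and 126 in set 97. It stayed low in set 100, at 103, 112 and 91.5, and in set ATGE_101, at 73.4, 85.1 and 89.3, so set 96 alone was high (difference 1.51, adjusted p = 0.0046). OSM34 (AT4G11650), an osmotin, read 190.3, 170.5 and 173 without and 80.4, 113 and 95.7 with sucrose in the first pair and 280.3, 239.7 and 262 without and 433, 427 and 459 with sucrose in the second. The fall of the first pair was called and the higher level with sucrose in the second was not (effects -0.85 and 0.74, difference 1.59, adjusted p = 0.015), and the difference was not called with the pseudocount divided by 4 (adjusted p = 0.14, range 9.5e-06 to 0.14 over all alternatives). ChiC (AT4G19810), a chitinase in this list, had effects of 1.55 and 1.67. Jasmonate genes gave 1 call of 4 measured (background again 12%), THI2.1, with the plant defensin PDF1.2 (AT5G44420) just outside the threshold (effects 0.52 and -0.96, adjusted p = 0.081).

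In the enzyme families that follow, the shares called over all probe sets tested, 5.38% higher and 6.64% lower, are the background. Of 29 measured UDP-glycosyltransferases 4 had a higher and 2 a lower called difference, the lower ones near that background, among them UGT73B4 and UGT73B5 above, UGT84A3 at 0.48 and UGT72E1 at -0.96. UGT73B4, among the higher ones, passed the filter on low values through the arrays of a single set. Its call therefore adds nothing to the comparison with the background. UGT71B6 (AT3G21780), which glucosylates abscisic acid, fell from 39.2 ± 9.27 to 14.2 ± 4.9 in the first pair and stood at 19.7 ± 4.34 and 25.9 ± 5.75 in the second (difference 1.43, adjusted p = 0.018). UGT85A5 (AT1G22370) read 26.1, 32.02 and 41.5 without and 47.8, 64.97 and 45.5 with sucrose, then 119.9, 119 and 96.6 without and 87.7, 79.3 and 77.8 with sucrose (difference -0.99, adjusted p = 0.0037). Of 11 beta-glucosidases 1 had a higher and 2 a lower called difference. They were BGLU46 (AT1G61820), which acts on lignin precursors, at 0.84 (adjusted p = 0.046), BGLU25 (AT3G03640) at -0.55 (adjusted p = 0.029) and BGLU16 (AT3G60130) at -0.45 (adjusted p = 0.0052). BGLU16 was high in set 100 alone, at 250.3, 264 and 256, with 186, 191 and 195 in set ATGE_101. Of 15 cytochromes P450 2 had a lower called difference, CYP71B22 (AT3G26200) at -0.90 (adjusted p = 0.022) and CYP71B34 (AT3G26300) at -0.46 (adjusted p = 0.027).

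Several of these calls depended on single arrays. BGLU46 lost its call without any single one of the 12 arrays (limma adjusted p = 0.052 to 0.12, range 0.003 to 0.26 over all alternatives), and also with a common 75th percentile. BGLU25 lost it without any one of arrays 96 C, 97 A, 97 B, 100 A, 100 C and ATGE_101 A (limma adjusted p = 0.055 to 0.087, range 0.015 to 0.12 over all alternatives), CYP71B22 without any one of arrays 96 A, 96 B, 100 A and ATGE_101 B (limma adjusted p = 0.053 to 0.059, range 0.0024 to 0.089 over all alternatives) and CYP71B34 without any one of arrays 96 B, 96 C, 97 B, 97 C, 100 A, ATGE_101 B and ATGE_101 C (limma adjusted p = 0.056 to 0.079, range 0.009 to 0.079 over all alternatives). UGT71B6 lost it without array 97 B (limma adjusted p = 0.053, range 0.0022 to 0.076 over all alternatives). With 1 array fewer, the number of calls over all probe sets fell to between 1306 and 1567.

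Of 15 measured serine carboxypeptidase-like genes 3 had a lower called difference and 0 a higher one by limma, with 6 at an unadjusted p under 0.05, against 6.64% lower and 5.38% higher over all probe sets tested. scpl35 (AT5G08260) read 85.8, 74.4 and 79.4 without and 217, 209.9 and 211 with sucrose in the first pair and 75.4, 62.8 and 84.98 without and 100.7, 95.8 and 109 with sucrose in the second, with control sets that overlapped (difference -0.91, adjusted p = 0.00043). scpl50 (AT1G15000) rose from 38.4 ± 1.91 to 61.9 ± 3.5 in the first pair and stood at 48.3 ± 0.687 and 51.6 ± 2.81 in the second (difference -0.52, adjusted p = 0.0034). SCPL34 (AT5G23210) is one of the 26 probe sets with a larger effect of the same sign in the second pair. It read 293, 303 and 276 without and 218, 227 and 216 with sucrose, then 507, 447 and 453 without and 205, 212 and 218 with sucrose, with set 100 the high one (effects -0.39 and -1.12, difference -0.74, adjusted p = 0.0086). The 3 lower differences thus arose from a smaller rise, a lost rise and a larger fall.

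Of 57 nuclear photosynthesis genes in the list 11 were measured. Of these 11 genes 0 had a called difference in the limma test, 0 had an unadjusted p under 0.05, and the smallest adjusted p was 0.61, against 12% called over all probe sets tested, so that few calls could be looked for among 11 genes. Their median effects were -0.09 and -0.01. Of 69 measured plastid-encoded genes 3 had a higher difference and 66 none, against 5.38% higher over all probe sets tested. psbB, which encodes the CP47 protein of photosystem II, read 936, 1285 and 909.9 without and 674, 669 and 944 with sucrose in the first pair and 532, 637 and 594 without and 1094, 831 and 950.2 with sucrose in the second (difference 1.14, adjusted p = 0.0047). psbD, which encodes the D2 protein, had means of 1672 and 1154, then 1222 and 1450.2 (difference 0.76, adjusted p = 0.017), and lost its call without array 96 B (limma adjusted p = 0.054, range 0.0078 to 0.085 over all alternatives). ycf3, for an assembly factor of photosystem I, had 675, 447, 390.1 and 379 (difference 0.54, adjusted p = 0.014).

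Some groups that sugar is known to move had no called difference by limma in any measured member, against 12% called over all probe sets tested, which in groups this small is little to tell apart from 0. They are 6 anthocyanin and flavonol genes, 4 starch genes and 9 ATG8 autophagy genes, of which ATG8H and ATG8G had an unadjusted p under 0.05 (adjusted p = 0.07 and 0.12). UF3GT (AT5G54060) of anthocyanin synthesis, for example, had effects of 0.14 and 0.19, and DFR (AT5G42800) of 0.31 and 0.55. A p that misses the threshold does not show that the effects were equal. All 9 ATG8 genes have a probe set naming them alone, but only 6 of 28 in the pigment list, 4 of 19 in the starch list and 0 of 24 for phosphate starvation, and the other members are not analysed here.

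The classes also differ in where the soil-grown plants stand. The median level of the 649 lost rises was 73.8 in set 96, 118 in set 97, 93.1 in set 100 and 86.9 in set ATGE_101, against 116 in soil-grown seedlings of set 7. The lost falls had 169 in set 96, 98 in set 97, 136 and 135 in the second pair, and 64 in set 7. The gained rises had 48.7, 44 and 47.7 in sets 96, 97 and 100, 90.7 in set ATGE_101 and 41.7 in set 7. These medians describe probe sets chosen by the same sets 96 to ATGE_101 and carry no test. AT5G55450 and AT3G22240, both lost rises, had means of 520.2 and 5234 in the whole plants of set 22, above every set on medium. WRKY6 and GAT1_2.1, in contrast, stood at 9.91 and 1.63 in set 7, below every set on medium.

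**Figure D5:**
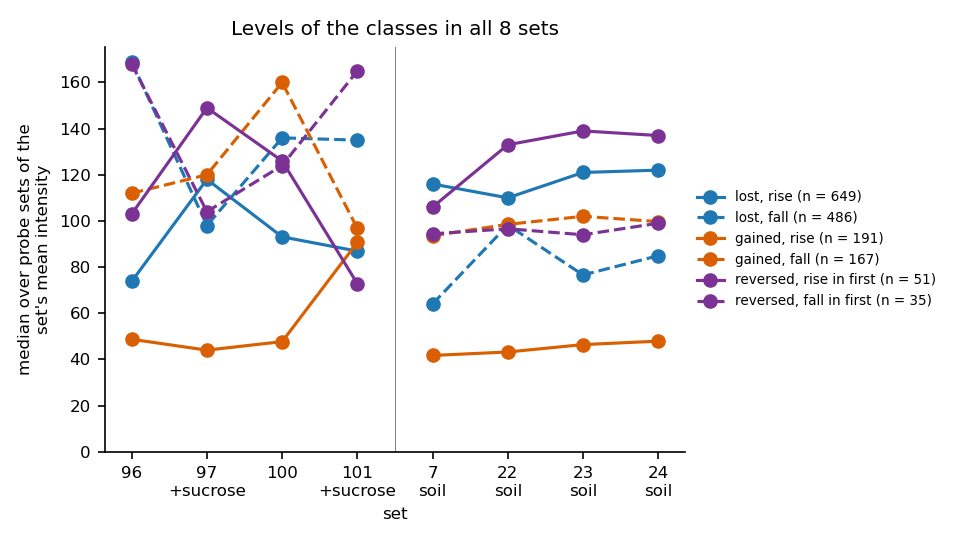
Median over probe sets of the mean intensity (y axis, linear, from 0) in each of the 8 sets (x axis), for lost, gained and reversed effects by direction. Gained rises stand at 90.7 in set ATGE_101 and between 41.7 and 48.7 in the other 7 sets, while lost falls are highest in set 96, at 169.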

How the data were processed

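Biotin-labelled total RNA of 24 samples was read on one-colour arrays, in 8 sets of 3 that follow the numbers of the sample titles. The authors deposited intensity values on a linear scale, 1 per probe set and array, made with MAS5 per the submitters' processing notes, at a version not given in the sources used here. In the deposited values the 2% trimmed mean of each array was checked and equals 100. No genome build is used and no coordinates are given.

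Intensities were turned from the deposited values into log2 values after adding 7, without further normalization. Of 22810 probe sets 64 controls were left out, and testing required an intensity above 22.9, the 40th percentile of all values, on 3 or more arrays. R 4.3.3 with limma 3.58.1 (tables handled with data.table, version 1.17.8) fitted a mean for each of the 8 sets with lmFit and eBayes, using all 24 arrays, with 16 residual degrees of freedom and 4.83 from the prior. Tests were two-sided, with Benjamini-Hochberg adjustment over all 15471 probe sets tested. The smallest p of a rank test of 3 against 3 arrays is 0.1. The number of arrays limits the precision. The procedure was tested on simulated data.

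Of the probe sets 13513 name 1 gene, 503 several and 8730 none, and 1580 have a symbol (1213 of those tested). For genes with 1 name, 13436 were matched to RefSeq by gene ID. For each of lost, gained and reversed and each direction, the 4 genes with a symbol and the 2 with a locus ID only that had the largest difference were named, as far as there were any. Up to 3 called members of each gene list, and 1 called against them, were added. ETFQO, UGT84A3, UGT72E1 and uncalled list members were chosen after their values were seen. Members and lists were chosen with earlier results of these data known. Replicate letters were checked for pairing: deviations of same-letter arrays of different sets correlated between -0.0646 and 0.0967, so letters were not treated as pairs. Alternatives were other pseudocounts (1.75 and 28), no filter and a stricter one (61.6), a common 75th percentile, quantile normalization, a fit of the 12 arrays alone, robust fitting with a trend, a block for the replicate letter, an adjusted p under 0.01 and leaving out each array. Leaving out arrays 100 A and ATGE_101 A together was chosen after seeing the data.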

Additional observations from a re-analysis of the deposited data

Results flagged for a closer look

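The effect of sucrose differed between the first and the second pair by the test of the difference itself, limma with an adjusted p under 0.05, for 1860 probe sets. The 65 genes listed below are among them by construction, as they were chosen from the called differences. Other genes given above, such as COR15A and ATA27, had no called difference. NRT2.5, Prx37, UGT73B4, AT1G22810, OCT1, GILT, AT3G26110, AT2G47050 and AT5G45880 passed the filter on low values through the 3 arrays of 1 set alone. Their calls add nothing to the description of their levels. The values below are the second-pair effect minus the first-pair effect on the log2 scale, and all per-array values stand with the genes above. Lost rises had differences of -1.6 for NRT2.5, -1.34 for SAL2, -1.2 for GH3.3, -1.07 for Prx37, -2.62 for AT3G22240, -2.18 for AT5G55450, -0.99 for UGT85A5, -0.55 for BGLU25, -0.90 for CYP71B22, -0.46 for CYP71B34, -0.52 for scpl50 and -1.04 for GSTU27. Lost falls had differences of 1.93 for UGT73B4, 1.86 for ICL, 1.74 for GID1B, 1.66 for CCR2, 2.44 for AT1G05340, 2.04 for AT1G22810, 1.52 for UGT73B5, 1.43 for UGT71B6, 1.51 for WRKY6, 0.84 for BGLU46, 0.93 for COR47, 0.76 for psbD, 0.54 for ycf3 and 1.59 for OSM34. Gained rises had differences of 2.33 for OCT1, 1.83 for GILT, 1.28 for THI2.1, 1.2 for AFR, 2.2 for AT3G26110, 2.17 for AT2G47050, 0.90 for HIS1-3, 1.14 for psbB and 0.99 for WSD1. Gained falls had differences of -1.25 for CSLA03, -0.94 for CIL, -0.93 for BZIP61, -0.90 for TBL45, -2.32 for AT5G64100, -1.69 for AT1G70985, -0.82 for NAI2, -0.45 for BGLU16, -0.69 for CSLC04 and -0.63 for SWEET11. Rises that became falls had differences of -1.2 for ALN, -0.97 for NANA, -0.63 for SPP, -0.55 for PMEAMT, -2.15 for AT1G33760 and -1.66 for AT1G68585. Falls that became rises had differences of 2.62 for AT5G45880 and 2.19 for AT1G66760. Rises that were smaller in the second pair had differences of -1.0 for GH9B8, -1.28 for EXPA8 and -0.91 for scpl35. Falls that were smaller in the second pair had differences of 0.83 for SDP1, 0.57 for GAT1_2.1, 0.73 for AT1G80380, 1.22 for MCCA, 0.81 for IVD, 0.59 for AKINBETA1 and 1.67 for XTH18. The fall that was larger in the second pair had a difference of -0.74 for SCPL34. The gene with neither effect called had a difference of 1.35 for LTI30.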

How the results depend on the processing

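The direction of the difference stayed the same for all 65 named genes under all alternatives run, up to 23 each. Of these genes 44 were called under every alternative run for them and 50 without any single array. The stricter filter was run for 52. All 65 were chosen from the called differences, so these counts do not describe the calls in general. The 44 include NRT2.5, UGT73B4, AT1G22810, OCT1, GILT, AT3G26110, AT2G47050 and AT5G45880. These passed the filter on low values through the arrays of a single set, so their calls add nothing to their levels. Among the genes outside the 44, OSM34 and Prx37 lost their call with the pseudocount divided by 4 (adjusted p = 0.14 and 0.067). Leaving out 100 A and ATGE_101 A together ended the calls of GAT1_2.1 and SCPL34 (adjusted p = 0.064 and 0.051). With only the 12 arrays in the fit 3082 differences were called, 1835 of them shared with the 1860, and 610 were gained and 265 reversed. Without a filter 56 were reversed. At an adjusted p under 0.01 the counts were 705 for the difference, 3251 for the first pair, 1409 for the second, 2984 for the control sets, 448 lost, 152 gained and 20 reversed. With arrays 100 A and ATGE_101 A left out they were 1100 for the difference, 1634 for the second pair, 725 lost, 202 gained and 46 reversed. Leaving out each array in turn gave 1306 to 1567 differences, 4068 to 5072 calls in the first pair, 1773 to 2503 in the second, 3734 to 4684 between control sets, 4692 to 5702 between sucrose sets, 785 to 984 lost, 242 to 309 gained and 54 to 73 reversed. The replicate letter as a block gave 1793 differences. A lower threshold lowers a count by construction, and the cause of the other changes was not tested. The split of higher against lower calls of the difference was 44.8% higher, 47.6% after quantile normalization and 44.4% with a common 75th percentile. Dim genes, under about 7, have differences that depend on the pseudocount.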

Other observations

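Among genes of stress and calcium signalling, 8 were measured and the limma test called 0 differences of the sucrose effect, with 0 at an unadjusted p under 0.05 and a smallest adjusted p of 0.195, against 12% called over all probe sets tested. The 4 measured flowering genes had a smallest adjusted p of 0.211 and the 2 measured glucosinolate genes one of 0.11. For 85 probe sets neither effect was called but their difference was, and of these 57 differed between the sucrose sets only.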
